A study of Mus musculus with 34 samples.

Results

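Extracellular nucleotides act on cells through a small set of receptors, and their expression was examined here in ear skin mast cells (MCs) and in the mural cells of the same tissue. The 10 genes were P2rx1, P2rx4, P2rx7, P2ry1, P2ry14, Adora2a, Adora2b, Adora3, Entpd1 and Nt5e, taken by name from the gene rows of every table, out of 20213 genes whose names do not start with Gm and a digit. The MCs came from 7-week-old male littermates of 2 genotypes on C57BL/6J. Both carried Mcpt5 Cre+/-, which is active in connective tissue MCs, and the R26LSLYFP reporter, and the study's methods place the Tln1 fl/fl line and its reporter crosses on the albino Tyr c-2J background. Tln1∆MC mice were also Tln1 fl/fl, and WT mice were not, so that in the former talin-1, the adaptor that couples integrins to actin, is deleted in MCs. MCs were sorted as CD45+Lin-YFP+ cells, with 3 mice per genotype (12 WT libraries and 18 Tln1∆MC libraries, of which 10 are from mouse 3), and Myh11GFP/+ mice gave CD45-GFP+ cells in 4 libraries, numbered 13 to 16. The methods give an age of 7 to 12 weeks for mice of the study as a whole. The number of Myh11-GFP mice is not given, so these libraries were treated as 1 sample without a test. This sort targeted vascular smooth muscle cells (VSMCs), and the study's text also names pericytes and fibroblasts among the cells it obtained.

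ATP released from cells opens the P2X ion channels, and ATP and ADP engage G-protein-coupled P2Y receptors. The ectonucleotidases CD39 (Entpd1) and CD73 (Nt5e) then degrade ATP and ADP stepwise to AMP and adenosine, which binds the adenosine receptors. In rodent MCs the receptor encoded by Adora3 is a known enhancer of degranulation, and the P2rx1 product is the contractile ATP receptor of arterial smooth muscle.

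Cells with more than 1000 transcripts were kept, which left 2477 MCs (904 WT and 1573 Tln1∆MC) and 330 Myh11-GFP cells. They held 699401 to 5238325 transcripts per mouse and 221589 to 478713 per Myh11-GFP library outside the Gm genes, and every level below is a number of transcripts per 10000 of these. Each molecule is counted once by its 3′ end, so levels of different genes were not divided by gene length. All 10 MC markers were detected in both genotypes, with Cpa3, the MC carboxypeptidase, at 106 to 155 per mouse and at most 0.0209 per Myh11-GFP library. In Myh11-GFP cells 4 of the 10 MC markers were detected. The most abundant there was Kit, at 0.0551 to 0.265 per library and in 19 of 330 cells (5.76%). In Myh11-GFP cells Acta2 stood at 36.2 to 46.4 and the pericyte gene Rgs5 at 108 to 118, and the 6 fibroblast markers summed to 142 to 340. Tln1 levels overlapped between genotypes (4.51 to 6.71 in WT, 3.63 to 5.57 in Tln1∆MC), but a 3′ tag does not read the deleted part of the gene. Transcripts of other cells were present in MCs of both genotypes, with no test run on them. The 6 fibroblast markers, all detected, did not overlap and summed to 20.1 to 82.7 per WT mouse and 0.976 to 10.5 per Tln1∆MC mouse. Of the 13 macrophage markers all but Lyz2 were detected in both, at 2.43 to 42.7 and 1.73 to 8.05, and the 7 keratinocyte markers stood at 1.72 to 30.1 and 0.0769 to 26.2, so these lists overlapped. WT mouse 2 was the highest for all 3 lists, through its library 3 (93.8 for macrophage and 76.5 for keratinocyte markers) and its library 1 (434 for fibroblast markers). The 2 libraries are therefore left out in turn below. Wells carry 1 of 2 sets of 96 barcodes that are reused between libraries, and 17 kept cells lay in the set that their library did not use.

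The promoters of 3 of the genes are shown so that they can be read beside the levels: Adora3, found only in MCs here, P2rx1, the highest of these genes in MCs after Adora3 and the one with the steepest Acta2 contrast in Myh11-GFP cells, and Entpd1, the highest in Myh11-GFP cells. Other genes of the group, such as Adora2a and P2ry14, also lay apart between MCs and Myh11-GFP cells. Sequences are from RefSeq (GRCm38.p6), read 5′ to 3′ and upstream of the RefSeq start. Capitals mark the letters GATAA or TTATC, the core bound by GATA factors, of which GATA2 is required in MCs. In P2rx1 the last 42 bases, and in Entpd1 the first 118 bases, were left out because they are annotated exon, in the case of Entpd1 exon of the neighbouring, divergently transcribed Tctn3.
Adora3 promoter, chr3:105904171-105904420, plus strand: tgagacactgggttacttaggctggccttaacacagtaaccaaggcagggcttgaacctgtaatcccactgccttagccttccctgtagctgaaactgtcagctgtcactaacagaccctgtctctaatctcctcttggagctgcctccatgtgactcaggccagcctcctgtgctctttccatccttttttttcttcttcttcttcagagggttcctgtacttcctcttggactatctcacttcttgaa
P2rx1 promoter, chr11:72998895-72999102, plus strand: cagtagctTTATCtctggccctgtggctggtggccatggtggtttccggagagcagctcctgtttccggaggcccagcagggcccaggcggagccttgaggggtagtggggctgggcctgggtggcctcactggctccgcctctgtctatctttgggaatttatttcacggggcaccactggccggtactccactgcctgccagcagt
Entpd1 promoter, chr19:40612234-40612365, plus strand: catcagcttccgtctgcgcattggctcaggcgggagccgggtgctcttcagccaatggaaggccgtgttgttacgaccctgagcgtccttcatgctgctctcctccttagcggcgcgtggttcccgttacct

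The P2rx1 sequence held 1 match, 242 bases before the RefSeq start, and the Adora3 and Entpd1 sequences none. The table held 14 promoter windows of 250 bases for 9 of the 10 genes. Of these windows 5, belonging to P2rx1, P2rx4, P2rx7 and P2ry14, held GATAA on either strand, against 22.6% of 32851 windows of all genes. The E-box CACGTG (6.0% of all windows) and the CArG box, which serum response factor binds at smooth muscle genes (1.5%), occurred in 0 of the 14 windows. A match describes letters in these windows only. Neighbours matter for reading the counts. Adora3 (chromosome 3, 105870858 to 105908926, plus strand) starts further upstream in the GENCODE annotation, which gives these coordinates, than in RefSeq, so the printed window before the RefSeq start lies inside the GENCODE gene. It shares its strand with Tmigd3. Tmigd3, which starts close to the start of that longer gene, had its own row at 0.186 to 0.636 in MCs and 0 in Myh11-GFP cells. The 2 genes overlap, and the division of transcripts between their rows is uncertain. P2ry14 lies within Med12l on the opposite strand, and the counting used the sense direction.

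In MCs the adenosine receptor Adora3 dominated the group. Its level in WT mice 1, 2 and 3 was 7.87, 6.42 and 5.65, and in Tln1∆MC mice 1, 2 and 3 it was 5.26, 6.27 and 5.17, with a mean of 6.11 ± 1.00 (SD, n = 6). Adora3 alone made up 51.2% to 61.1% of all transcripts of the 10 genes in each mouse. At least 1 Adora3 transcript was found in 1703 of 2477 MCs (68.8%, exact 95% binomial interval 66.9 to 70.6%), and in 41.4% of the 2195 MCs that could be thinned to 1000 unique molecular identifiers (UMIs) each. The 282 shallower MCs were left out of the thinned value. In Myh11-GFP cells Adora3 was found in 0 of 330 cells, and a floor of 3 counts allows a share of up to 0.909% of cells with an Adora3 UMI, which is no limit on cells that express the gene. Against a floor of 3 counts over the Myh11-GFP group, Adora3 was at least 293-fold higher in MCs. This contrast was a description, since the Myh11-GFP cells were 1 sample. Intervals and floors here cover counting error only.

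P2rx1 was next, where the WT mice stood at 2.75, 2.74 and 3.12, and the Tln1∆MC mice at 3.54, 2.81 and 2.27 (2.87 ± 0.426, SD, n = 6). It was found in 49.6% of MCs, or 22.8% at equal depth, and took 21.3% to 34.5% of the transcripts of the 10 genes. P2rx4, a second ATP-gated channel that is abundant in endolysosomes, followed at 1.31, 0.845 and 0.901 in the WT and at 0.692, 0.739 and 1.00 in the Tln1∆MC animals. The Gs-coupled receptor Adora2a stood at 0.358, 0.296 and 0.186 in the WT and at 0.256, 0.238 and 0.420 in the Tln1∆MC animals. The order Adora3, P2rx1, P2rx4, Adora2a held in 6 of 6 mice, and the ranges of neighbours in it did not overlap. Below Adora2a each gene overlapped with the next. P2rx7, the channel that opens at high ATP, averaged 0.161 ± 0.0763, Entpd1 0.156 ± 0.0559, P2ry14, the receptor for UDP-sugars, 0.0676 ± 0.0297, the low-affinity receptor Adora2b 0.0667 ± 0.0433, the ADP receptor P2ry1 0.0577 ± 0.0217 and Nt5e 0.0320 ± 0.0390 (SD, n = 6 each). The ecto-5′-nucleotidase Nt5e was represented by 19 transcripts in 8 MCs, and 15 of the 19 lay in the 162 MCs that carried at least 3 fibroblast marker transcripts. Adora2a and Adora2b therefore differed in level by more than their ranges in MCs, as Adora2a spanned 0.186 to 0.420 and Adora2b 0.0231 to 0.127.

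**Figure D1:**
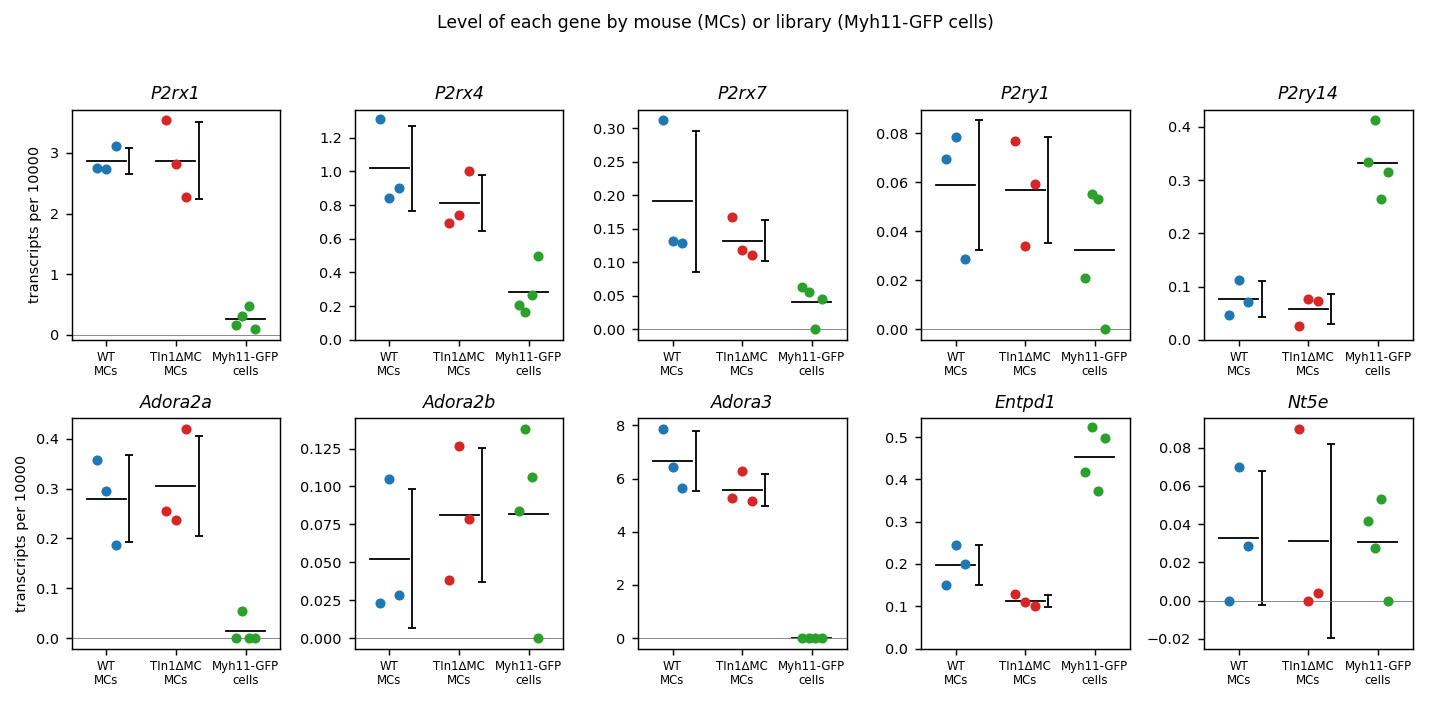
Level of each of the 10 genes in transcripts per 10000 (linear axis per gene), with 1 point per mouse for WT and Tln1∆MC MCs and per library for Myh11-GFP cells. Horizontal lines are means and the bars beside the MC groups are SDs over 3 mice. Adora3 is at 0 in all 4 Myh11-GFP libraries, whereas P2ry14 and Entpd1 lie higher there than in all 6 MC mice.

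Single MCs mostly carried few of these transcripts. At 1000 UMIs per cell, 25.3% to 43.3% of the thinned MCs of a mouse had none of the 10 genes. Another 40.8% to 52.2% had 1 of them and 13.7% to 22.5% had 2 or more, with at most 3 in a cell. In Myh11-GFP libraries 80.3% to 88.2% had none. Adora3 and P2rx1 were found together in 7.48% to 13.8% of MCs per mouse, where the product of their shares was 7.90% to 13%. The 2 transcripts were thus found in the same cells about as often as that product gives, with differences between the observed and the product value of both signs over the 6 mice.

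Across the 34 libraries, the 5 genes closest to Adora3 in log2 level were Ms4a2, the β chain of the high-affinity IgE receptor, Serpinb1a, the MC receptor Mrgprb1, the chymase Cma1 and Cyp11a1 (Pearson r 0.99 each, among 8643 genes). All of them are near 0 in Myh11-GFP cells, and within the 30 MC libraries their r fell to 0.56 to 0.72. P2rx1 was closest to Psen2 (r 0.97 over 34 and 0.80 over 30 libraries), a catalytic subunit of γ-secretase, followed by Foxp1, Chn2, Ankrd13a and Gch1. P2rx4 was closest to Adipor2 (0.88 and 0.70), followed by Arhgap9, Tesk2, Serinc3 and Tk2. Libraries of 1 mouse share their source and libraries differ in depth, so these values are given as a description.

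Deletion of Tln1 raises the question of whether receptor expression differed in MCs without talin-1. With limma on sums per mouse, 0 of the 7 tested genes had an adjusted p under 0.05, against 0% of the 8601 genes tested in each direction, and 527 of all genes (6.13%) but 0 of the 7 had an unadjusted p under 0.05. The 7 log2 differences had a median of -0.20, against 0.02 over all genes. P2ry1, P2ry14 and Nt5e were too low for this test. The estimates were tightest for the abundant genes, with a log2 difference (Tln1∆MC over WT, transcripts per 1000000 plus 1) of -0.20 ± 0.19 (SE) for Adora3 (limma adjusted p = 0.905), 0.03 ± 0.20 for P2rx1 (0.988) and -0.27 ± 0.23 for P2rx4 (0.899). For P2rx7 it was -0.35 ± 0.38, for Adora2a 0.17 ± 0.32 and for Adora2b 0.71 ± 0.75, and the P2rx1 mean was 2.87 in both genotypes.

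Entpd1 showed the largest separation by mouse. Its level in WT mice 1, 2 and 3 was 0.15, 0.244 and 0.20, and in Tln1∆MC mice 1, 2 and 3 it was 0.128, 0.110 and 0.101, so all 3 Tln1∆MC mice were below all 3 WT mice (0.198 ± 0.0469 against 0.113 ± 0.0137, SD, n = 3 each). This made 1 of the 7 tested genes, where 6.31% of all 8601 genes had all Tln1∆MC mice below and 5.34% all above. The exact permutation p (two-sided) was 0.10, the smallest that 3 against 3 mice allow, and the limma log2 difference was -0.69 ± 0.34 (adjusted p = 0.855). The values rest on 55 and 76 transcripts. Entpd1 moved with macrophage markers: its level was 1.56-fold higher (counting interval 1.05 to 2.29) in the 323 MCs with at least 3 macrophage marker transcripts, 130 of which came from WT mouse 2. Without those cells the WT mice had Entpd1 levels of 0.167, 0.167 and 0.113 and the Tln1∆MC mice of 0.139, 0.101 and 0.104, and the groups overlapped. Without library 3 or without library 1 of WT mouse 2, Entpd1 was again the 1 gene without overlap. Neither the part of these cells in the difference nor that of the fibroblast transcripts was tested further.

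Adora3 overlapped in level because Tln1∆MC mouse 2 (6.27) exceeded WT mouse 3 (5.65), but its share of positive cells did not overlap. Thinning left out the shallower cells, 85 of 338, 32 of 294 and 76 of 272 MCs of WT mice 1, 2 and 3. Of Tln1∆MC mice 1, 2 and 3 it left out 45 of 285, 33 of 354 and 11 of 934. The part of this loss in the contrast was not tested. At 1000 UMIs per cell, the WT mice had an Adora3 transcript in 55.7%, 43.5% and 44.4% of their thinned MCs, compared with 33.8%, 36.8% and 39.9% for the Tln1∆MC mice. All 3 Tln1∆MC mice were below the WT mice (47.9 ± 6.82% against 36.8 ± 3.06%, SD, n = 3 each, p = 0.10 by the same exact permutation test, its lower limit). Entpd1 was the other gene of the 7 without overlap in this measure (1.94 ± 0.421% against 1.06 ± 0.573%), although its closest mice, at 1.53% and 1.52%, hardly differed, and without MCs with macrophage marker transcripts it overlapped (2.58%, 0.730% and 1.20% against 0.442%, 0.990% and 1.57%). These 2 of 7 stood against 5.45% of all genes with every Tln1∆MC mouse below and 5.28% with every one above. Without thinning, the share of Adora3-positive cells overlapped, at 64.5%, 69.0% and 56.2% in the WT and 56.1%, 62.1% and 80.2% in the Tln1∆MC animals. Pooled over cells it was 63.5% and 71.8%, where Tln1∆MC mouse 3 was the 1 Tln1∆MC mouse above every WT mouse. The median depth per MC ran from 1889 to 3002 transcripts in WT and from 2164 to 4776 in Tln1∆MC mice. Adora3 went down with markers of other cells, to 0.649-fold (0.603 to 0.698) in MCs with macrophage marker transcripts and 0.609-fold in those with fibroblast marker transcripts. Both kinds of cell were more frequent in WT mice 2 and 3. In MCs with keratinocyte marker transcripts Adora3 was 0.511-fold (0.466 to 0.559). Those were 4 of 338, 80 of 294 and 3 of 272 MCs of WT mice 1, 2 and 3. Of Tln1∆MC mice 1, 2 and 3 they were 0 of 285, 6 of 354 and 123 of 934. Without any cell carrying at least 3 transcripts of another type, the Adora3 share at equal depth was 58.5%, 48.3% and 46.4% in the WT and 33.8%, 36.4% and 39.8% in the Tln1∆MC animals. Its level also no longer overlapped once MCs with macrophage marker transcripts were left out, when the WT mice stood at 7.89, 7.84 and 6.41 and the Tln1∆MC mice at 5.11, 6.39 and 5.81. The closest of these mice, at 6.41 and 6.39, hardly differed. The separation was smaller at 2000 UMIs per cell, where the expected share was 62.9% to 74.4% in WT and 60.1% to 60.5% in Tln1∆MC mice.

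**Figure D2:**
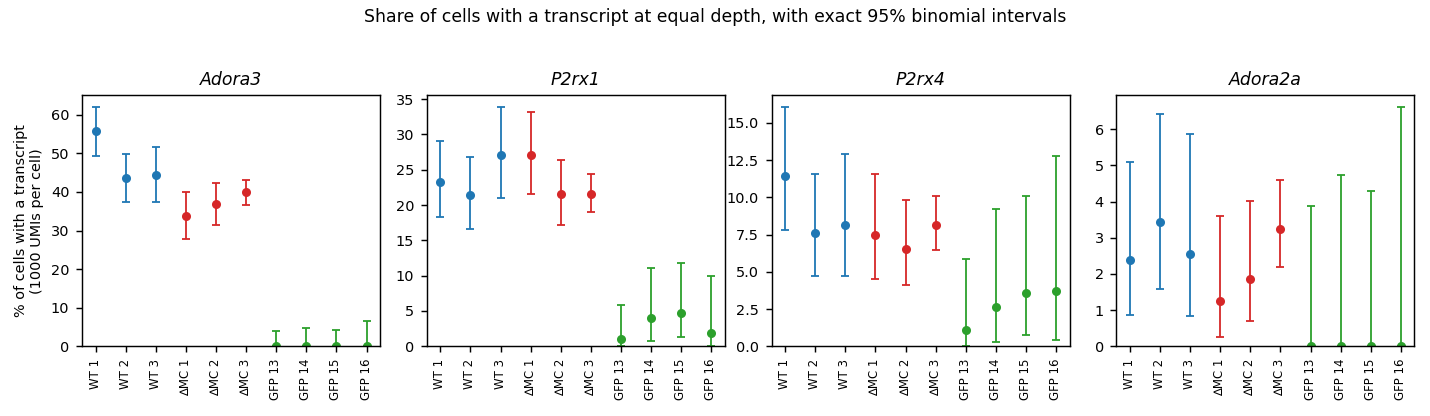
Percentage of cells with at least 1 transcript of Adora3, P2rx1, P2rx4 and Adora2a after thinning to 1000 UMIs per cell, by WT mouse, Tln1∆MC mouse (∆MC) and Myh11-GFP library (GFP). Cells with fewer UMIs are left out. Bars are exact 95% binomial intervals, which cover counting error only. For Adora3 the 3 Tln1∆MC mice lie at 33.8% to 39.9%, below the WT mice at 43.5% to 55.7%, and P2rx1, P2rx4 and Adora2a overlap between genotypes.

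Mice were also compared within sets inferred from the data, which are not labelled batches. They were formed from the total transcripts per barcode. These totals were correlated between the barcodes a library did not use and the same barcodes in libraries that used them. WT mouse 1 and Tln1∆MC mouse 1 formed a first set that was only weakly separated, with a mean Spearman rho between them of 0.23 and 0.26, and of 0.15 with Tln1∆MC mouse 2. WT mice 2 and 3 and Tln1∆MC mouse 2 formed a second set (0.31 to 0.50), and Tln1∆MC mouse 3 stood without a WT mouse. The log2 differences (Tln1∆MC over WT) in the first and second set were -0.58 and 0.05 for Adora3, -0.48 and -0.02 for Adora2a and 0.73 and 0.94 for Adora2b. They were 0.36 and -0.06 for P2rx1, -0.92 and -0.24 for P2rx4 and -0.90 and -0.13 for P2rx7. For P2ry1 they were 0.15 and -0.66, for P2ry14 -0.85 and -0.27 and for Entpd1 -0.23 and -1.01. Nt5e was at 0 in 1 arm of each set. Adora3, P2rx1 and P2ry1 thus differed in sign between the sets, and the other 6 did not. No test was run within a set. With the set as a block, limma called 0 of the 7 tested genes (lowest adjusted p = 0.602) and 4 of 8601 genes in all.

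Of the other purine genes, 33 of 36 listed had a row and 9 could be tested, of which 0 were called. Of these 9 genes, 1 had all Tln1∆MC mice below the WT mice, as 6.31% of all 8601 genes did. This was Slc29a1, the equilibrative nucleoside transporter that takes up adenosine, with a WT mean of 17.3 ± 2.29 and a Tln1∆MC mean of 11.7 ± 1.72 (SD, n = 3 each). Its log2 difference was -0.51 ± 0.21 (limma adjusted p = 0.810, unadjusted 0.0401), and it was lower within both sets of libraries (-0.32 and -0.89). At equal depth its share of positive MCs overlapped between the genotypes (78.6 ± 6.88% and 62.7 ± 8.94%). Without MCs with macrophage marker transcripts its level overlapped too, at 14.5, 20.7 and 21.2 in the WT and 11.7, 10.1 and 14.8 in the Tln1∆MC animals. The same held without MCs carrying transcripts of any other type (14.9 in WT mouse 1 and 15.1 in Tln1∆MC mouse 3). Slc29a1 was the highest of all purine genes in MCs, with a mean of 14.5, above Adora3.

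MCs and Myh11-GFP cells carried different members of the group. Summed over the 10 genes, levels were 9.29 to 12.9 in MCs and 1.34 to 1.73 in Myh11-GFP libraries. Of all 10 genes, 5 lay in every MC mouse above every Myh11-GFP library (Adora3, P2rx1, P2rx4, P2rx7 and Adora2a), 2 lay below (P2ry14 and Entpd1) and 3 overlapped (Adora2b, P2ry1 and Nt5e). Of the 9345 genes that passed a filter on low values 22.0% lay above and 18.5% below. Adora3, Adora2a and P2rx7 passed that filter through their MC counts alone, with 0, 2 and 6 transcripts in Myh11-GFP cells, so the counts are a description and nothing is read from them. P2rx1 was 11.1-fold, P2rx4 3.22-fold and P2rx7 3.96-fold higher in MCs. Adora2a rested on 346 transcripts in MCs and 2 in Myh11-GFP cells, a 21.2-fold ratio of levels.

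In Myh11-GFP cells the ectonucleotidase Entpd1 led. It stood at 0.418, 0.523, 0.372 and 0.497 in libraries 13, 14, 15 and 16, 2.90-fold above the MC mean, and was found in 48 of 330 cells (14.5%). P2ry14 followed at 0.334, 0.413, 0.265 and 0.316, or 4.91-fold above MCs. P2rx4 stood at 0.209, 0.165, 0.265 and 0.497 and P2rx1 at 0.167, 0.303, 0.478 and 0.0903. Each of these genes overlapped in range with the next, so their order was not separated beyond the spread of the libraries. Markers of other cells were present too, at 3.36 to 5.42 for macrophage and 0 to 1.81 for endothelial markers. Without cells holding at least 3 macrophage, T and NK cell, keratinocyte, endothelial or Schwann and melanocyte transcripts, Entpd1 stood at 0.341, 0.576, 0.396 and 0.399. P2ry14 then stood at 0.372, 0.432, 0.352 and 0.171. The part of such cells in these levels was not tested. P2rx1 transcripts were found in 21 of 330 Myh11-GFP cells (6.36%, interval 3.98 to 9.56%), beside 0 of 330 for Adora3. The unused barcodes of these libraries held neither, in a pool of only 56503 transcripts outside the Gm genes, so nothing is read from these 0 counts.

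**Figure D3:**
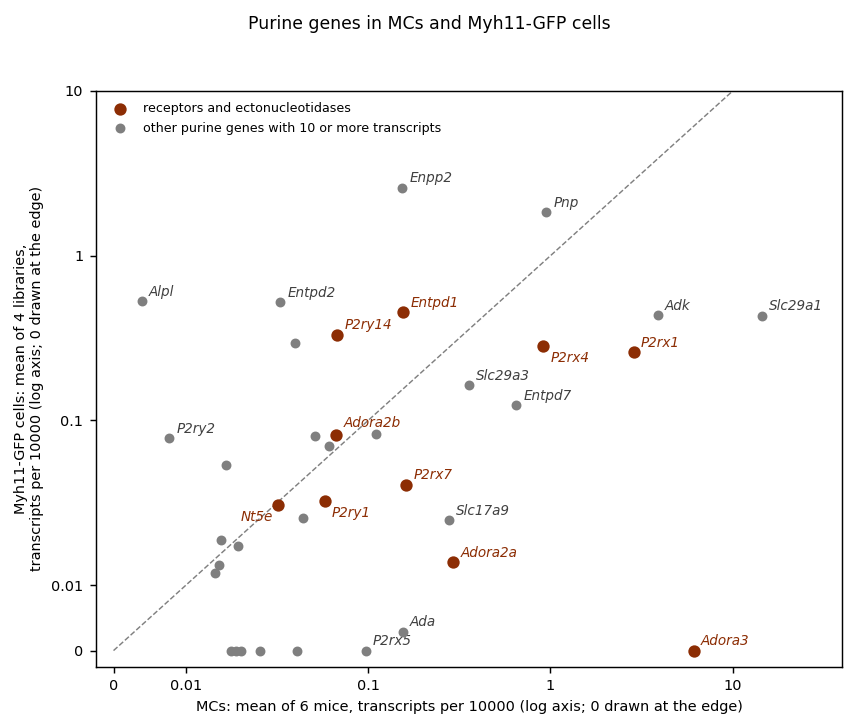
Mean level of the 10 genes (brown) and of other purine genes with at least 10 transcripts (grey) in MCs (6 mice) against Myh11-GFP cells (4 libraries), in transcripts per 10000 on log axes, with 0 drawn at the edge and equal levels on the dashed line. Adora3, P2rx1, Slc29a1 and Adk lie far to the MC side, and Entpd1, P2ry14, Entpd2, Enpp2 and Alpl on the Myh11-GFP side.

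Other purine genes were also set side by side in the 2 groups of cells. Of 13 that passed the filter, 7 lay above in all MC mice, 5 below and 1 overlapped, beside 22.0% and 18.5% of all genes. Some passed it through 1 group alone, such as P2rx5 (91 transcripts in MCs and 0 in Myh11-GFP cells), Ada (142 and 1), Slc17a9 (281 and 3) and Alpl (3 and 79). These counts are therefore a description and nothing is read from them. After Slc29a1, the highest in MCs were adenosine kinase Adk (3.89), the nucleoside phosphorylase Pnp (0.945), the intracellular nucleotidase Entpd7 (0.647), the lysosomal transporter Slc29a3 (0.357) and the vesicular nucleotide transporter Slc17a9 (0.277). In Myh11-GFP cells the highest were Enpp2, which encodes autotaxin (2.58), Pnp (1.83), the ectophosphatase Alpl (0.530), the ecto-ATPase Entpd2 (0.521), Adk (0.434) and Slc29a1 (0.432). Slc29a1 was thus 33.7-fold and Adk 8.95-fold higher in MCs, and Alpl 92.6-fold and Entpd2 15.8-fold higher in Myh11-GFP cells, Alpl on 3 transcripts in MCs.

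Myh11-GFP cells were mixed, so each library was cut at its median Acta2 level into Acta2-high cells (164) and Acta2-low cells (166). These are ranges of 1 gene and not cell types. Myh11 stood at 29.1 and 7.59 in Acta2-high and Acta2-low cells, Rgs5 at 122 and 106, the 6 fibroblast markers at 56.8 and 306, and the median depth was 3976 and 3866 transcripts. Of the Acta2-low cells 8, and of the Acta2-high cells 0, lay in barcodes that their library did not use, and restricting the cells to used barcodes gave ratios of 43.7 for P2rx1, 4.98 for Entpd1 and 0.486 for P2rx4, close to those below. P2rx1 lay almost entirely in the Acta2-high cells, with 38 transcripts against 1 (41.7-fold, counting interval 7.04 to 1688). By library the counts were 8 and 0, 11 and 0, 17 and 1, and 2 and 0. P2rx1 was found in 20 of 164 Acta2-high and 1 of 166 Acta2-low cells, and at equal depth in 9 of 154 and 0 of 153. By the ratio of levels it ranked 5 of the 9562 genes with at least 10 transcripts. P2rx1 passed that limit through the Acta2-high cells alone, so the rank is a description and nothing is read from it.

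Entpd1 was also higher in the Acta2-high cells, with 53 and 11 transcripts (5.28-fold, 2.73 to 11.2). Its counts by library were 17 and 3, 18 and 1, 7 and 7, and 11 and 0, so library 15 did not show the difference, and without it the ratio was 12.6. P2rx4 had 11 and 26 transcripts (0.464-fold, 0.207 to 0.971), with a lower level in 3 of 4 libraries. It rested on single libraries, since the interval reached 1 without library 14 (0.254 to 1.29), without library 15 (0.175 to 1.11) or without library 16 (9 and 17 transcripts, 0.229 to 1.38), where 1 Acta2-low cell held 6 of the 26. Without library 13 the ratio was 0.255. P2ry14, with 16 and 32, had an interval that reached 1 (0.281 to 1.03), but not without library 15 (0.170 to 0.833). Adora2b, with 4 and 9, also had an interval that reached 1 (0.110 to 1.75). Of the 5 genes with at least 10 transcripts, 2 were higher (10.4% of all genes by the same interval) and 1 was lower (10.6%) in the Acta2-high cells. Since P2rx1 reached 10 transcripts through the Acta2-high cells alone, these counts are a description. The 5 Nt5e transcripts all lay in Acta2-low cells, P2rx7 had 3 and 3, P2ry1 2 and 3, Adora2a 1 and 1 and Adora3 none. Among other enzymes Alpl was higher in Acta2-high cells (59 and 20 transcripts, 3.23-fold) and Entpd2 lower (5 and 62, 0.0884-fold), as were Slc29a1 (0.297-fold), Pnp (0.445-fold) and Enpp2 (0.727-fold). Thus the 2 ecto-ATPases Entpd1 and Entpd2 lay on opposite sides of the Acta2 cut, and the fibroblast markers went with Entpd2. So did keratinocyte (13.5 in Acta2-low and 0.480 in Acta2-high cells), endothelial (1.45 and 0.0291) and Schwann and melanocyte markers (3.42 and 0.218). Macrophage markers stood at 4.13 and 3.93. Entpd2 was uneven over cells, as 1 cell held 12 of 22 transcripts in library 16 and 1 held 10 of 16 in library 14. The part of fibroblasts and of these other cells in these differences was not tested.

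**Figure D4:**
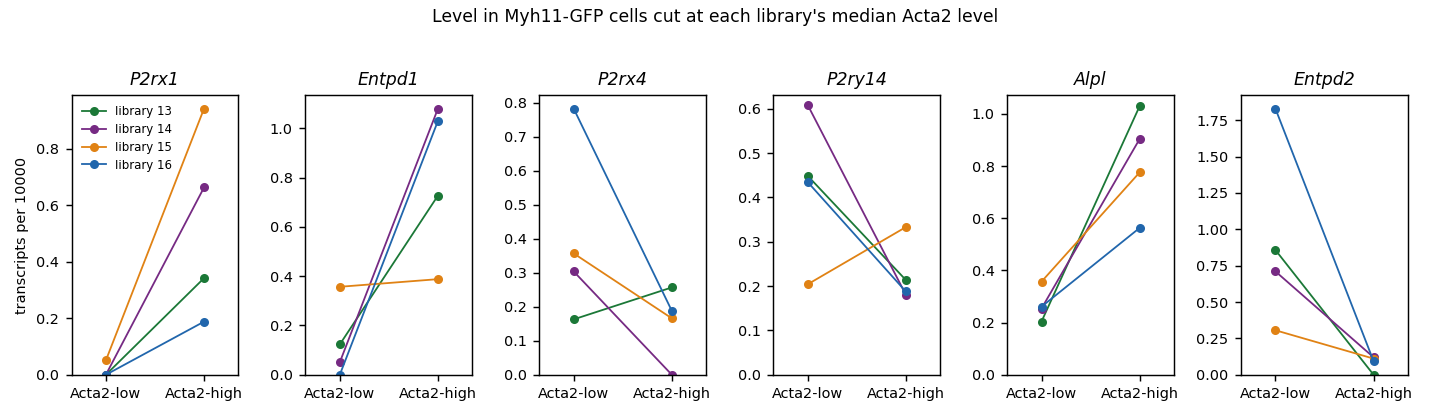
Level of P2rx1, Entpd1, P2rx4, P2ry14, Alpl and Entpd2 in transcripts per 10000 (linear axis per gene) in the Acta2-low and Acta2-high Myh11-GFP cells, with 1 line per library. P2rx1 and Alpl rise from low to high in all 4 libraries, Entpd1 is nearly level in library 15, and Entpd2 falls in all 4.

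No gene of the group passed the test across the immediate early programme of MCs. MCs of each mouse were cut at the median summed level of 8 immediate early genes (Fos, Fosb, Jun, Junb, Egr1, Ier2, Dusp1 and Atf3), which often rise when cells are dissociated. The high and low groups, of 1238 and 1239 cells, stood at 219 and 44.6 for this list, and 0 of 7 tested genes passed the exact sign-flip test over 6 mice, whose smallest p is 0.031. None of the 7 went the same way in 6 of 6 mice, as 5.88% of all genes did upwards and 5.76% downwards. Adora3 averaged 6.40 ± 1.39 in the high and 5.78 ± 0.654 in the low group (p = 0.188, exact), and was higher in 4 of 6 mice. P2rx1 averaged 2.54 ± 0.369 and 3.26 ± 0.933 (p = 0.219, exact), where Tln1∆MC mouse 1 held the widest gap, at 2.29 and 5.00. The lowest p was that of Adora2b (0.0246 ± 0.0159 and 0.106 ± 0.0743, lower in 5 of 6 mice, exact p = 0.0625). P2rx4 (0.894 and 0.934, exact p = 0.656), P2rx7 (0.193 and 0.133, exact p = 0.125), Adora2a (0.289 and 0.295, exact p = 0.875) and Entpd1 (0.157 and 0.148, exact p = 0.781) did not pass either, and P2ry1, P2ry14 and Nt5e were too low to test. The low group also held more macrophage (14.7 and 6.72), keratinocyte (31.7 and 2.63) and fibroblast transcripts (29.0 and 2.47), and Adora2b was 2.00-fold higher (1.20 to 3.27) in MCs with macrophage marker transcripts. The part of those cells in the Adora2b difference was not tested.

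Rare genes of the group were spread unevenly over cells. In the 323 MCs with macrophage marker transcripts, P2ry1 was 3.32-fold (1.91 to 5.75) and P2ry14 2.05-fold higher (1.22 to 3.40) than in other MCs, whereas P2rx1 was 0.686-fold and Adora2a 0.60-fold. A few very bright cells carried a large part of some rare transcripts in single mice. The 5 MCs with more than 30000 transcripts held 11 of 31 P2ry1 and 11 of 41 Adora2b transcripts of Tln1∆MC mouse 3, and 6 of 8 Nt5e transcripts of WT mouse 2. In WT mouse 2 they held 2 of 9 P2ry1 and 1 of 12 Adora2b transcripts, and in WT mouse 3 0 of 2 of each. Of all transcripts they held 11.0% in WT mouse 2, 7.81% in WT mouse 3 and 9.40% in Tln1∆MC mouse 3. They held 5 of 737 Adora3 transcripts of WT mouse 2 and 18 of 2710 of Tln1∆MC mouse 3. P2ry1, P2ry14, Adora2b and Nt5e were found in 40, 59, 59 and 8 of 2477 MCs. Their levels in MCs therefore rest on few cells, and those of Adora3 and P2rx1 on many.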

How the data were processed

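Single cells were sequenced by mCEL-Seq2. The authors aligned reads with BWA 0.6.2-r126 to mm10 with ENCODE VM9 gene models after bcl2fastq 2.17.1.14, merged gene loci that overlap by more than 75%, counted in the sense direction, discarded reads mapping to several loci and converted numbers of UMIs (6 bases) to transcripts. The deposited tables hold these values, which are another unit than whole counts: binomially corrected transcript counts per gene and well, not normalised.

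Here the values were summed over the kept cells of a mouse or Myh11-GFP library and divided by all transcripts outside Gm genes, which are mostly unannotated models. Genotypes were compared with limma 3.58.1 (R 4.3.3) with a trend on log2(transcripts per 1000000 + 1) after TMM scaling, on genes with 10 or more transcripts in 3 or more mice, with Benjamini-Hochberg adjustment over all genes, since the replicate is the mouse. Single values were compared with exact two-sided permutation tests in Python 3.11.15 (scipy 1.17.1). For equal depth, UMIs were recovered by inverting the correction (every value was whole within 1e-06) and 1000 UMIs per cell drawn at random. Doublets were excluded in the sort, and no caller was run. A filter on Kcnq1ot1 above 2% removed 0 cells. The scripts were tested on simulated data.

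All 10 genes were looked at in every comparison, and those too low for a test are named as such. Of the other purine genes, the 6 highest in MCs and in Myh11-GFP cells and any that passed a test are named. Entpd2 across the Acta2 cut, Alpl and the cells that carry other markers were looked at with values known. The genes, lists and tests were chosen with earlier results of these data known. Between-genotype p-values measure the spread of 3 mice per group. Deviations from the genotype mean correlated over genes at 0.16, -0.21 and -0.27 for same-numbered mice, and at -0.29 to 0.42 for mice of other numbers. With means of 3 mice these values cannot decide whether a number marks a shared litter or day. The main fit did not pair the mice. Promoter letters were searched for GATAA and CACGTG and for the CArG box on both strands.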

Additional observations from a re-analysis of the deposited data

Results flagged for a closer look

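Transcripts of these genes also occurred in the 96 barcodes that a library did not use, in which 17 of the kept cells also lay. Over all libraries these barcodes held 104 transcripts of Adora3, 59 of P2rx1, 16 of P2rx4, 4 of P2rx7, 4 of P2ry1 and 4 of Adora2b, all above the limit of 3 that a count of 0 allows. In the unused barcodes of MC libraries Adora3 stood at 3.31 and P2rx1 at 1.88 per 10000, below the 5.17 to 7.87 and 2.27 to 3.54 of the MCs. P2rx4 (0.510) and P2rx7 (0.0637) also stood below their MC means of 0.914 and 0.161, whereas P2ry1 (0.127), Adora2b (0.127) and Nt5e (0.0956) stood above theirs of 0.0577, 0.0667 and 0.0320, on 4, 4 and 3 transcripts. In the unused barcodes of Myh11-GFP libraries Adora3 and P2rx1 were at 0, and P2rx7 stood at 0.354 on 2 transcripts, against 0.0407 in the Myh11-GFP cells. This pool held only 56503 transcripts outside the Gm genes, so nothing is read from its 0 counts. Restricting the cells to the barcodes in use left Entpd1 as the gene without overlap between genotypes.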

How the results depend on the processing

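With no limma call among these genes under all 29 alternatives tried, calls give no measure of stability. The count of genes without overlap between genotypes was 0 with Gm genes in the total, 2 with each cell weighted equally (Adora3 and Entpd1), and 1 to 2 when a mouse was left out in turn. It stayed at 1 above 2000 transcripts per cell, but the gene was then P2rx7. In the share of cells at equal depth, whose alternatives were chosen after seeing the data, the count was 1 (Adora3) without cells carrying transcripts of any other type or with 4 libraries of Tln1∆MC mouse 3, and 2 to 4 when a mouse was left out, 4 being without Tln1∆MC mouse 3. The first of these counts also named Adora3 in place of Entpd1 without cells carrying macrophage transcripts. Adora3 was without overlap under all 17 of those alternatives. Those that left out a mouse could not create an overlap for it, so they say nothing on its stability. The log2 difference of P2rx1 changed sign to -0.01 without library 3 of WT mouse 2 and to -0.02 without TMM, and ran from -0.09 to 0.20 when a mouse was left out (-0.05 without WT mouse 1 and -0.09 without Tln1∆MC mouse 1). That of P2rx7 ran from -0.54 to 0.00 (without WT mouse 1), and that of Adora2a from -0.07 (without WT mouse 3 or Tln1∆MC mouse 3) to 0.32, and was -0.12 with the background set as a block. The differences ranged from -0.29 to -0.12 for Adora3, from -0.91 to -0.24 for Entpd1 and from -0.67 to -0.40 for Slc29a1. The causes were not tested.

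With the mouse number as a replicate block, limma called 0 of these genes and 0 genes in all, with 427 at an unadjusted p under 0.05 against 527 without the block. Over all genes, 1 was called without WT mouse 1, 10 without Tln1∆MC mouse 1 and 4 with the background set as a block. The Acta2 groups could not be compared without cells carrying fibroblast or keratinocyte transcripts, since 1 to 4 cells per Myh11-GFP library were left. With Gm genes in the total, MC levels fell to 3.38 for Adora3, 1.58 for P2rx1 and 0.517 for P2rx4. When cells were cut by Myh11, or library 15 was left out, no P2rx1 transcript lay in the low group. Genes below about 0.1 per 10000 rest on few transcripts.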
